A study of Mus musculus with 9 samples.

Results

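Neuregulins are growth factors with an EGF-like domain, and the ErbB proteins are the receptor tyrosine kinases that bind them. Of the 8 genes taken up here, chosen by name, *Nrg1*, *Nrg2*, *Nrg3* and *Nrg4* encode ligands and *Erbb2*, *Erbb3*, *Erbb4* and *Egfr* encode receptors. A row was found for 7 of them among the 21457 features of the expression matrix of spinal cholinergic neurons, and *Erbb2* was not analysed here. Their levels are described in 16042 nuclei, which the authors placed in 21 clusters: 3 of skeletal motor neurons (MNs), S1 to S3, 10 of visceral MNs, V1 to V10, and 8 of cholinergic interneurons, I1 to I8.

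The nuclei came from mice of 8 weeks of age of the strain labelled Chat-IRES-Cre::Sun1-sfGFP, whose genotype is given as Chat-iCre:+/wt; SUN-SfGFP:+/wt in every library. In these mice Cre is made under the control of *Chat* and switches on a green fluorescent protein of the nuclear envelope, so any cell that has ever made Cre is marked and sorted. Cords of 12 mice were combined, 4 mice to a pool. Tissue of the Cervical, Thoracic and Lumbar/Sacral regions was kept apart within a pool, for 9 libraries in all, 3 per region. Replicate 1 held 2 males and 2 females, replicate 2 held 4 males and replicate 3 held 4 females, so that libraries with the same number share their mice and sex cannot be told apart from the pool.

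In the pathway, a neuregulin of the surface of one cell, or a piece cut from it, binds ErbB3 or ErbB4 on its neighbour. ErbB2 binds no neuregulin by itself and serves as a partner of the other receptors, ErbB3 has little kinase activity of its own, and EGFR answers mainly to other ligands such as EGF and TGF-alpha. Neuregulin-1 of motor axons is known for its part in Schwann cell growth and myelination and in muscle spindle formation, and ErbB4 is known in the brain as the receptor of many inhibitory interneurons.

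The ligands share the EGF-like stretch with 6 cysteines that contacts the receptor, and it is shown for the ligands with an entry used here to let the reader see what is common to genes that differ so much in level. The coding stretches below are from the GENCODE vM21 transcripts of GRCm38 and run from the codon of the first cysteine to that of the last, with the 6 cysteine codons in capitals. Each lies on the minus strand and crosses an intron. The stretch of *Nrg1* holds 40 codons and lies between positions 31837698 and 31849398 of chromosome 8, in exons 6 and 7 of the transcript. That of *Nrg3* holds 39 codons, between 38668261 and 39012054 of chromosome 14 in exons 2 and 3, and that of *Nrg4* holds 37 codons, between 55242177 and 55280969 of chromosome 9 in exons 3 and 4.
Nrg1: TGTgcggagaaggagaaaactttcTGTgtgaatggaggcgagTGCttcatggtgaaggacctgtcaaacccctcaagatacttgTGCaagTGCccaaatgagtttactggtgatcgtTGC
Nrg3: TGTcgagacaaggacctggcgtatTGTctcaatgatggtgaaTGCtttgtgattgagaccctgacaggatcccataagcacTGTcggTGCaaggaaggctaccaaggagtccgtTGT
Nrg4: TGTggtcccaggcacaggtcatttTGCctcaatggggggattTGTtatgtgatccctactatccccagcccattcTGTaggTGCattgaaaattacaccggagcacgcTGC

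The values are whole numbers that the authors' SCTransform model put in place of the counts, called corrected counts. For each library they were summed over the nuclei of a class or cluster with at least 10 nuclei and scaled to a total of 1000000, which is called CPM. The median total per nucleus ran from 4712 corrected counts in lumbar/sacral replicate 1 to 16127 in the library labelled cervical replicate 2, so shares of nuclei are given after each nucleus was reduced at random to 4600 corrected counts (called thinned). Nuclei below that total, 8.63% in all, were dropped: 44.1% of those of lumbar/sacral replicate 1, 13.6% of replicate 3 and none elsewhere. Among the cholinergic nuclei, 33 cell barcodes were shared by at least 2 libraries. The defining markers fitted the class names: *Tns1* was at 381 ± 61.3 CPM in skeletal against 31.3 ± 3.46 in visceral MNs, *Zeb2* at 387 ± 138 CPM in visceral MNs and at 12.6 ± 16.1 in skeletal MNs, and *Pax2* at 211 ± 35.3 CPM in interneurons and at 7.03 ± 4.73 in skeletal MNs (SD, n = 9 libraries).

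*Hox* genes, which mark the level of the cord, went against the labels of 2 libraries. *Hoxa9* was at 9.68 CPM in the library labelled cervical replicate 2, against 0.412 and 0.213 CPM in the other cervical libraries, and at 0.507 CPM in the library labelled thoracic replicate 2, against 9.35 and 9.04 CPM in the other thoracic libraries. *Hoxd11* was at 27.3, 31.0 and 23.0 CPM in the lumbar/sacral libraries and had no corrected count in the rest. The labels were kept. Lumbar/sacral libraries are compared below with cervical and thoracic libraries together, and an exchange of these 2 libraries would not alter the log2 differences. It can alter their SE, their p and the genes called, since the spread is taken within the labelled regions. Values without both are given where the difference of a member turned in sign.

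*Nrg1* and *Nrg3* were the leading members in cholinergic neurons. Over all cholinergic nuclei *Nrg1* was at 7729 ± 1577 CPM and *Nrg3* at 4830 ± 872 CPM (SD, n = 9 libraries), and *Nrg1* had a corrected count in 99.7% and *Nrg3* in 100.0% of the nuclei. *Nrg2* was at 287 ± 46.7 CPM, *Nrg4* at 24.6 ± 5.62 CPM and *Erbb4* at 456 ± 236 CPM, with a corrected count in 81.4%, 15.6% and 40.7% of nuclei. *Erbb3* and *Egfr* were near the floor, at 0.787 ± 0.468 and 1.66 ± 0.740 CPM, with a count in 84 and in 162 nuclei of 16042.

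Levels of different genes are compared only per length, because a long gene catches more reads in nuclear RNA. Per 100 kb of gene span *Nrg1* was at 723 CPM, *Nrg3* at 437, *Nrg2* at 160, *Erbb4* at 42.3, *Nrg4* at 23.1, *Erbb3* at 3.55 and *Egfr* at 1.0. On this scale the 3 leading members were all ligands. The spans are 1069 kb for *Nrg1* (chromosome 8, 31814551 to 32884029, minus strand), 180 kb for *Nrg2* (chromosome 18, 36017652 to 36197380, minus strand), 1104 kb for *Nrg3* (chromosome 14, 38368952 to 39473088, minus strand) and 107 kb for *Nrg4* (chromosome 9, 55220222 to 55326844, minus strand). Those of the receptors are 1076 kb for *Erbb4* (chromosome 1, 68032186 to 69108059, minus strand), 166 kb for *Egfr* (chromosome 11, 16752203 to 16918158, plus strand) and 22.1 kb for *Erbb3* (chromosome 10, 128567523 to 128589652, minus strand), all in GRCm38.

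**Figure D1:**
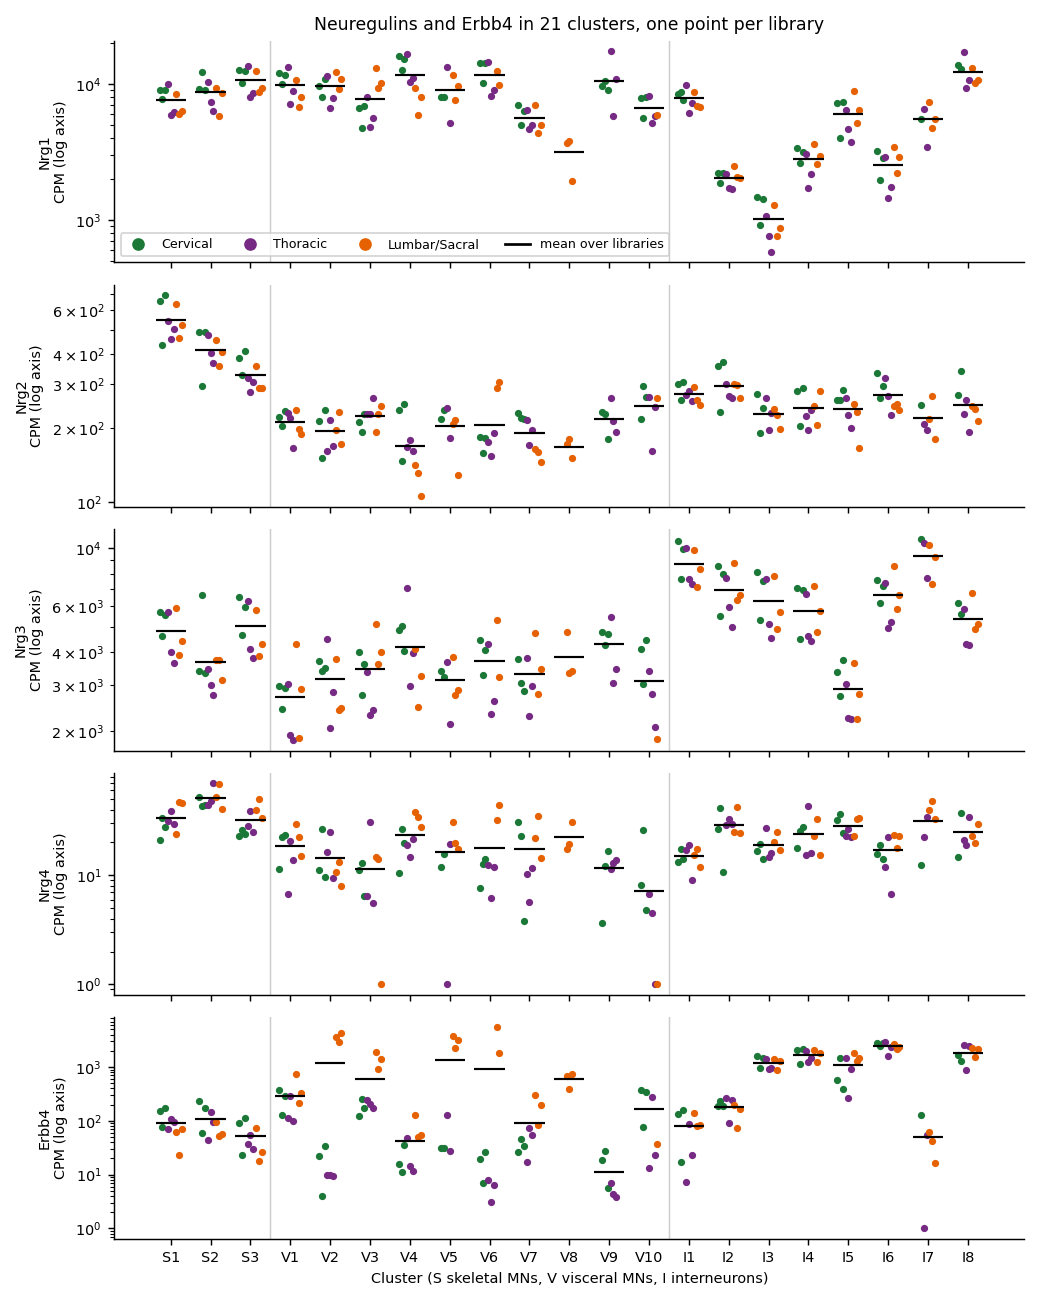
CPM on a log axis of the 4 neuregulins and *Erbb4* in the 21 clusters, with 1 point for each library that had at least 10 nuclei, coloured by region, and the mean as a black bar (values under 1 are drawn at 1). *Nrg1* runs from a mean of 1016 CPM in I3 to 12204 CPM in I8, and *Erbb4* separates lumbar/sacral from other libraries in V2, V5 and V6.

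*Nrg1* was high in every skeletal cluster and in most visceral clusters, and split the interneurons. Its cluster means were 7593 ± 1552 CPM in S1, 8672 ± 1965 in S2 and 10640 ± 2093 in S3 (SD, n = 9 libraries each), where S1 holds the nuclei the authors call Type 3, S2 alpha MNs and S3 gamma MNs. S1 was below S3 in 9 of 9 libraries, with a difference of -0.49 ± 0.06 (SD) in log2(CPM + 5). Among interneurons *Nrg1* was at 12204 ± 2515 CPM in I8 (n = 8) and 7800 ± 1172 in I1 (n = 9), but at 2043 ± 255 in I2 and 1016 ± 315 in I3 (n = 9 each). I3 was the lowest of all 21 clusters, and its lowest and highest library, 576 and 1467 CPM, lay below those of I2, 1680 and 2472 CPM. Of the 20 pairs of neighbours in the order of *Nrg1* levels, 7 differed by more than the SD of their difference within libraries and 13 did not.

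Among visceral clusters V8 and V7 held the least *Nrg1*. V8, which reached 10 nuclei in the lumbar/sacral libraries alone, was at 1926 to 3829 CPM, with a mean of 3149 ± 1061 (SD, n = 3 libraries). In the same libraries the next visceral cluster with 3 values, V7, was at 5429 ± 1347 CPM, and V2 and V3 were at 10783 ± 1564 and 10865 ± 1991 CPM. The lowest value of V7, 4369 CPM, was above the highest of V8.

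*Nrg2* was highest in the 3 skeletal clusters, in the order S1, S2 and S3. They were at 547 ± 94.5, 415 ± 68.0 and 329 ± 45.2 CPM (SD, n = 9 libraries), and S1 was above S2 and above S3 in 9 of 9 libraries. The other clusters ran from I2 at 296 ± 45.3 to V8 at 167 ± 15.2 CPM (n = 3). After S3 and I2, neighbours in the order differed by less than the SD of their difference, other than V4 and V8. V4 at 168 ± 47.1 CPM was the neighbour of V8 in the order over all its libraries, but was below V8 in the 3 libraries that hold both.

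*Nrg3*, which is known as a ligand of ErbB4, was highest in interneurons. I7 was at 9329 ± 1508 CPM (SD, n = 6) and I1 at 8726 ± 1389 (n = 9), and I2, I6, I3, I4 and I8 followed before any MN cluster. I5 was the exception at 2889 ± 597 CPM (n = 9), which placed it above V1 alone, at 2691 ± 790 CPM. The MN clusters lay between V1 and S3 at 5040 ± 1094 CPM. Among skeletal clusters S2 was the lowest at 3687 ± 1143 CPM, below S1 in 8 of 9 libraries and below S3 in 8 of 9.

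*Nrg4*, another ligand of ErbB4, was low throughout, and highest in alpha MNs. S2 was at 51.5 ± 11.1 CPM, S1 at 33.3 ± 9.08 and S3 at 32.0 ± 9.26 (SD, n = 9), and S2 was above S3 in 9 of 9 libraries. After thinning, 20.6% ± 6.12 of S2 nuclei had a count, against 14.3% ± 3.46 in S1 and 13.7% ± 4.62 in S3. All other clusters were between 31.6 CPM in I7 and 7.15 CPM in V10, and of the 20 neighbours in the order only S2 and S1 differed by more than the SD.

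*Erbb3* and *Egfr* were at most a few CPM in nearly every cluster. The exception was *Egfr* in I2, at 17.02 ± 8.47 CPM (SD, n = 9 libraries) with 2.17 in the lowest and 30.4 in the highest library, and the next cluster, I1, was at 2.82 ± 2.62 CPM. After thinning, 7.34% ± 4.11 of I2 nuclei had an *Egfr* count. *Erbb3*, in the cord a gene of glia, was highest in S3 at 2.05 ± 0.935 CPM. Markers of oligodendrocytes and their precursors, without *Mbp*, reached at least 2 counts in 7.14% of the 84 nuclei with an *Erbb3* count and in 6.94% of those without. For *Egfr* these shares were 9.88% of 162 nuclei and 6.91%. Astrocyte markers reached at least 2 counts in 17.86% and 17.87% for *Erbb3* and in 19.8% and 17.9% for *Egfr*. Schwann cell markers were not counted here, and these shares were not tested.

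*Erbb4*, the receptor found at an appreciable level, had the widest fold range between cluster means of the 5 members that passed the filter used for the tests. Its mean was 2455 ± 404 CPM in I6 (SD, n = 9), 1854 ± 589 in I8 (n = 8), 1694 ± 414 in I4 and 1209 ± 280 in I3 (n = 9 each), and 11.2 ± 9.82 in V9 (n = 6). In I3, I4, I6 and I8 at least 96.4% of thinned nuclei had a count, so the gene was found in nearly every nucleus of these clusters. I1 and I7 were low among interneurons, at 81.7 ± 56.3 and 50.6 ± 45.2 CPM. The skeletal clusters were at 107 ± 65.5 CPM in S2, 92.3 ± 46.5 in S1 and 52.4 ± 34.3 in S3, with S2 above S3 in 9 of 9 libraries, and a count in 17.4%, 21.1% and 12.98% of thinned nuclei. No nuclei that should lack *Erbb4* were at hand for a background, and the lowest share was 4.30% ± 5.17 in V9 after the same thinning. Thinning equalizes the totals of corrected counts and not the reads behind them. Of the 20 neighbours in its order, 3 differed by more than their SD. Its visceral clusters spread widely between libraries, and this spread went with the region.

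The ligands and *Erbb4* were not at their highest in the same clusters. Over the 21 cluster means of log2(CPM + 5), Pearson's r with *Erbb4* was -0.34 for *Nrg1*, -0.20 for *Nrg2*, -0.14 for *Nrg3* and -0.13 for *Nrg4*, as a description of clusters that share their libraries. I3 and I4 had some of the least *Nrg1* and much *Erbb4*, whereas I8 had the most *Nrg1* and the second highest mean of *Erbb4*. Since *Nrg3* had a count in all nuclei, each nucleus with *Erbb4* also held a neuregulin: after thinning these made up 16.7% ± 6.23 of skeletal MN, 31.5% ± 23.3 of visceral MN and 63.2% ± 5.68 of interneuron nuclei (SD, n = 9 libraries).

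Genes most like each member over the clusters were sought among 10841 others. For *Nrg1* they were Gm26578 (r = 0.89), Gm45304 (0.87) and *Lasp1* (0.85), and for *Nrg3* they were *Nrg3os* (0.96), Gm20642 (0.93) and *Smarcd3* (0.86). Gm26578 lies within *Nrg1* and *Nrg3os* and Gm20642 lie within *Nrg3*, on the opposite strand in each case, and whether the counting used the strand is not given in the sources used here, so their reads may be shared with their hosts. *Nrg3os* spread widely between libraries, at 268 ± 238 CPM (SD, n = 9) in the skeletal class, 176 ± 152 in the visceral class and 346 ± 299 among interneurons. For *Nrg2* the closest were *Bcan* (0.89), *Wnk2* (0.89) and *Flt3* (0.88), for *Nrg4* Gm5784 (0.87), *Erich6* (0.86) and *Rab11fip5* (0.86), and for *Erbb4* *Unc13a* (0.85), *Rasef* (0.79) and *Fbl* (0.75).

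The 3 classes were compared next, with the class sums of a library set against each other. The authors drew classes and clusters from these same nuclei, so the tests describe the labelled classes and are no independent evidence of them. The share of all genes without overlap between classes was not taken, so ranges given below as not overlapping between classes are descriptions only. Most genes differ between classes: limma called 66.7% of 11292 genes between visceral and skeletal MNs, 59.5% between interneurons and skeletal MNs and 51.4% between interneurons and visceral MNs, at an adjusted p (Benjamini and Hochberg) under 0.05. Genes below 10 CPM in all but 2 or fewer sums were not tested. This left 5 of the 7 members, without *Erbb3* and *Egfr*. Without that filter limma called *Egfr* higher in interneurons than in skeletal (0.49 ± 0.07, SE, adjusted p = 1.45e-05) and visceral MNs (0.65 ± 0.07, adjusted p = 5.92e-07), and *Erbb3* higher in skeletal MNs, with differences of -0.30 ± 0.05 for interneurons (adjusted p = 1.36e-05) and -0.19 ± 0.05 for visceral MNs (adjusted p = 0.00173), all at class levels of a few CPM or less. For *Egfr* this was not shared by most interneuron clusters. The mean was 17.02 CPM in I2, 2.82 in I1 and 1.27 in I8. It was 0.85 in I5, 0.24 in I4, 0.19 in I6 and 0 in I3 and I7, below the 1.05 CPM of the skeletal class.

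**Figure D2:**
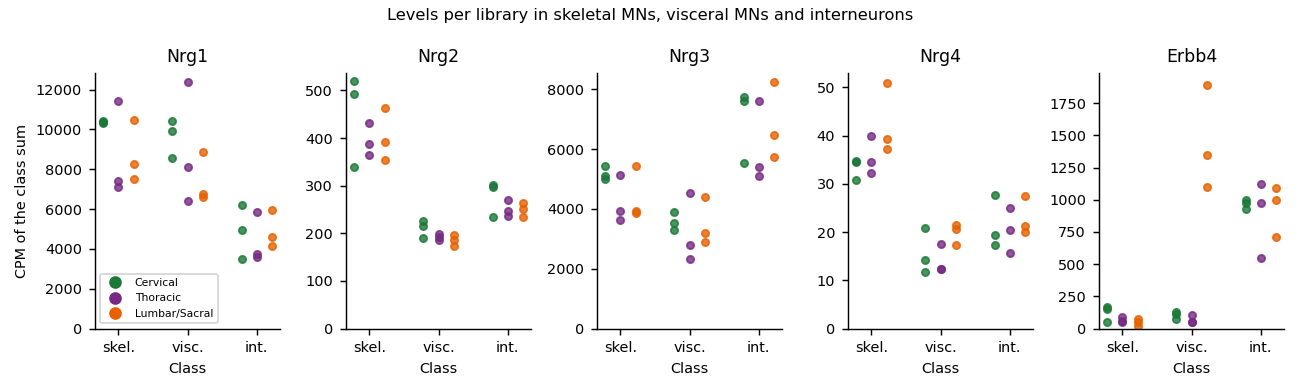
CPM of the class sum in each library for skeletal MNs (skel.), visceral MNs (visc.) and interneurons (int.), coloured by region, on linear axes that start at 0. *Nrg2* and *Nrg4* are highest in skeletal MNs, *Nrg3* in interneurons, and *Erbb4* of visceral MNs is high in the 3 lumbar/sacral libraries, at 1100 to 1890 CPM.

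Between visceral and skeletal MNs 3 of the 4 neuregulins were called, 3 lower and 0 higher, where 30.1% and 36.7% of all genes were. *Nrg2* was at 339 to 519 CPM in skeletal MNs, with a median of 392, and at 173 to 227 CPM in visceral MNs, with a median of 193, without overlap. Its log2 difference was -1.06 ± 0.04 (SE, adjusted p = 8.46e-15), that of *Nrg4* was -0.98 ± 0.06 (adjusted p = 1.83e-11) and that of *Nrg3* was -0.44 ± 0.07 (adjusted p = 1.54e-05). *Nrg1* differed by -0.11 ± 0.09 and was not called (adjusted p = 0.300). For *Erbb4* no p is given here, since the lumbar/sacral visceral values for which it was named carry the difference: it was 1.59 ± 0.57 with all libraries and -0.04 ± 0.23 without the lumbar/sacral ones.

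All 5 members tested were called between interneurons and skeletal MNs, 2 higher and 3 lower, against 27.8% and 31.7% of all genes. *Erbb4* was at 552 to 1123 CPM in interneurons, with a median of 979, and at 23.1 to 167 CPM in skeletal MNs, with a median of 61.8, and every interneuron value lay above every skeletal one. The log2 difference was 3.65 ± 0.57 (SE, adjusted p = 9.69e-06), and it was 3.36 ± 0.23 without the lumbar/sacral libraries. All classes share the estimate of spread, which for *Erbb4* takes in the lumbar/sacral visceral values for which it was named. Its p is therefore no measure of how this difference alone varies over the libraries. *Nrg3* was higher by 0.51 ± 0.07 (adjusted p = 2.70e-06). *Nrg1* was lower by -0.98 ± 0.09 (adjusted p = 4.01e-09), *Nrg4* by -0.67 ± 0.06 (adjusted p = 1.05e-08) and *Nrg2* by -0.66 ± 0.04 (adjusted p = 2.24e-11).

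Between interneurons and visceral MNs each of the 4 neuregulins was called as well. *Nrg2*, *Nrg3* and *Nrg4* were higher and *Nrg1* was lower, where 19.9% and 31.4% of all genes were. *Nrg3* was at 5101 to 8246 CPM in interneurons and at 2327 to 4545 CPM in visceral MNs, without overlap, with a log2 difference of 0.95 ± 0.07 (SE, adjusted p = 3.63e-10). *Nrg1* was at 3476 to 6190 CPM in interneurons and at 6394 to 12379 CPM in visceral MNs, again without overlap, and differed by -0.87 ± 0.09 (adjusted p = 4.16e-08). *Nrg2* was higher by 0.39 ± 0.04 (adjusted p = 1.52e-07) and *Nrg4* by 0.31 ± 0.06 (adjusted p = 0.000392). For *Erbb4* the difference was 2.06 ± 0.57 with all libraries and 3.40 ± 0.23 without the lumbar/sacral ones. No p is given for it, since the visceral sums hold the values for which it was named. With scaling by the median of ratios in place of the total, 50.8% of the genes called were higher in interneurons, against 38.8%, and the neuregulins kept their directions and calls.

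The division of the cord into 3 regions asks how a class changes along it. In visceral MNs limma called 4.27% of 10031 genes between lumbar/sacral and the other libraries (2.32% higher and 1.94% lower), 0.01% of 9999 genes in skeletal MNs and 0.051% of 9805 genes in interneurons (0.0204% higher and 0.0306% lower). With the pool of mice as a block the genes called were 737 in place of 428 in visceral MNs, 4 in place of 1 in skeletal MNs and 44 in place of 5 in interneurons. *Erbb4* in lumbar/sacral visceral MNs was named when the genes were chosen, so its values there are a description and no p is given.

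**Figure D3:**
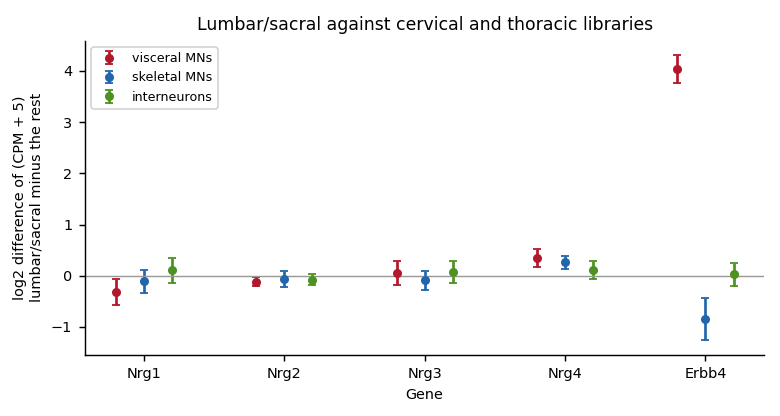
Log2 difference of CPM plus 5 between lumbar/sacral libraries and the mean of cervical and thoracic libraries for 5 members, in visceral MNs (red), skeletal MNs (blue) and interneurons (green), with the SE from limma as bars. *Erbb4* in visceral MNs stands at 4.04 and the other differences lie between -0.84 and 0.34.

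No ligand was called between regions in any class. In visceral MNs 0 of the 4 neuregulins were called by limma, and 0 passed an unadjusted p of 0.05, with log2 differences of -0.31 ± 0.25 for *Nrg1*, -0.12 ± 0.09 for *Nrg2*, 0.05 ± 0.24 for *Nrg3* and 0.34 ± 0.17 for *Nrg4* (SE, adjusted p from 0.478 to 0.977). In skeletal MNs 0 of 5 members were called and 0 passed the unadjusted p. With the pool of mice as a block, none was called either, but *Nrg4* passed an unadjusted p of 0.05 in visceral (adjusted p = 0.169) and skeletal MNs and *Erbb4* in skeletal MNs (adjusted p = 0.591 for both) in limma. *Nrg4* was higher in lumbar/sacral libraries in 3 of 3 pools in each class, by 0.05 to 0.60. *Erbb4* in skeletal MNs was at 73.8, 23.1 and 48.9 CPM in lumbar/sacral replicates 1 to 3 and at 48.2 to 167 CPM in the other 6 libraries, which overlapped, with a log2 difference of -0.84 ± 0.42 (SE, adjusted p = 0.900). In interneurons 0 of 5 were called and 0 passed the unadjusted p, and *Erbb4* differed by 0.02 ± 0.22 (SE, adjusted p = 0.9997).

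The class level of *Nrg1* in visceral MNs, which was not called between regions, was 7411 ± 1258 CPM in lumbar/sacral libraries (SD, n = 3) and 9302 ± 2070 in the others (n = 6). Without V8, which held 30.5% ± 4.14 of lumbar/sacral visceral nuclei and 0.172% ± 0.151 of cervical ones, it was 9342 ± 1905 and 9302 ± 2070 CPM. Within clusters *Nrg1* differed in opposite directions: V3 was at 9313 to 13110 CPM in lumbar/sacral libraries and 4702 to 7993 CPM in the others, whereas V4 was at 5893 to 9367 CPM against 10233 to 16527 CPM. Neither pair of ranges overlapped, and the differences of log2(CPM + 5) were 0.84 and -0.81. Of all genes 2.62% were higher without overlap in V3, and the share lower in V4 was not taken. In the other 5 clusters that both parts of the cord share the ranges overlapped.

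*Erbb4* of visceral MNs was at 1890, 1100 and 1345 CPM in lumbar/sacral replicates 1 to 3. In cervical replicates 1 to 3 it was at 115, 72.2 and 125 CPM, and in thoracic replicates 1 to 3 at 54.5, 103 and 47.7 CPM. Every lumbar/sacral library was above every other one, which held for 5.31% of genes in this class, 2.31% in skeletal MNs and 0.877% in interneurons. The log2 difference of CPM plus 5 was 4.04 ± 0.27 (SE), and within the pools of mice it was 4.49, 3.60 and 4.03. In the same pools the difference was -0.28, -1.34 and -0.91 in skeletal MNs and 0.04, -0.04 and 0.07 in interneurons, so *Erbb4* was higher in the lumbar/sacral visceral MNs of each pool and lower in the lumbar/sacral skeletal MNs of each. The region difference in visceral MNs minus that in skeletal MNs was 4.88 ± 0.25 (SE), again a description. Of the 4 neuregulins 0 were called for this difference by limma and 0 passed an unadjusted p of 0.05, where 5.96% of 10990 genes were called.

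The higher *Erbb4* of lumbar/sacral visceral MNs was there with and without V8. V8, found almost wholly in the lumbar/sacral cord, was at 687, 396 and 731 CPM in its 3 libraries, below the level of the class. It held 12.47% of the *Erbb4* counts of lumbar/sacral visceral MNs and 30.9% of the nuclei. Without V8 the lumbar/sacral level of the class was 1821 ± 598 CPM (SD, n = 3), and without V8 and V9 it was 1829 ± 598. Most of the counts came from V2, with 36.9%, and V5, with 29.7%, which held 15.6% and 13.7% of the nuclei.

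**Figure D4:**
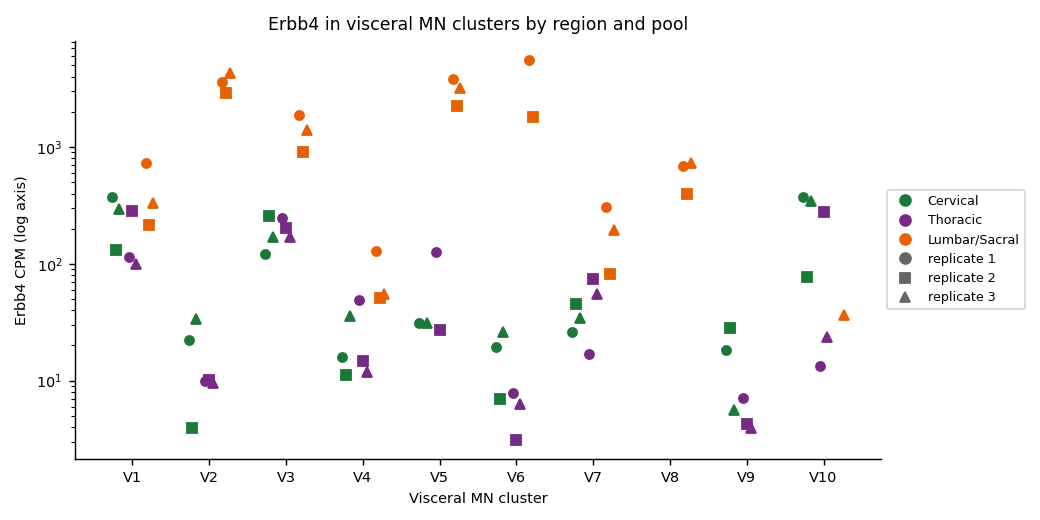
*Erbb4* CPM on a log axis in the 10 visceral MN clusters, 1 point for each library with at least 10 nuclei, coloured by region with the pool of mice as the symbol. In V2, V5 and V6 the lumbar/sacral libraries are at 1819 CPM or more and the others at 127 or less.

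Within clusters that both parts of the cord share, the change was largest in V6, V2 and V5. In V2 *Erbb4* was at 3619, 2880 and 4344 CPM in lumbar/sacral replicates 1 to 3 and between 3.97 and 33.6 CPM in the 6 other libraries. The difference of the means of log2(CPM + 5) was 7.66. V6 was at 5590 and 1819 CPM in the 2 lumbar/sacral libraries with at least 10 nuclei, which held 13 and 10 nuclei, and between 3.13 and 26.1 CPM in the 6 others, a log2 difference of 7.75. In V5 the lumbar/sacral libraries were at 3844, 2251 and 3173 CPM and the 4 others at 27.3 to 127 CPM, a log2 difference of 5.95. The lumbar/sacral means of these 3 clusters, 3614, 3704 and 3090 CPM, were above that of I6, the interneuron cluster with the most *Erbb4*, and their means elsewhere were 14.9, 11.6 and 54.3 CPM.

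In the remaining clusters the change was smaller. V3 was at 1876, 907 and 1398 CPM in the lumbar/sacral and 122 to 259 CPM in the other libraries, a log2 difference of 2.78. V7 differed by 2.03 and V4 by 1.61, at 195 and 78.2 CPM in the lumbar/sacral libraries in the mean against 42.0 and 23.1 CPM. V1 was at 735, 215 and 333 CPM against 98.7 to 371 CPM, and these ranges overlapped. So lumbar/sacral libraries were higher in 7 of the 7 clusters with at least 2 libraries on each side, without overlap in 6. V10 had 1 lumbar/sacral library, of 20 nuclei, at 36.5 CPM. It was above the libraries labelled thoracic replicates 1 and 3, at 13.4 and 23.5 CPM, and below the rest. Those were at 278 CPM in the library labelled thoracic replicate 2 and at 376, 77.8 and 348 CPM in those labelled cervical replicates 1 to 3. Among single clusters, 3.05, 3.83, 2.62, 5.11, 6.95, 9.78 and 4.35% of genes were higher without overlap in V1 to V7 in turn. Of 8657 genes tested in all of these clusters, 3, or 0.0347%, had no overlap and were higher in at least 6. They were *Erbb4*, *Cpa6* and *Plpp4*, of which the last 2 were named after their values were seen. Among the ligands *Nrg1* was higher without overlap in 1 of the 7 clusters, *Nrg2* in 1, *Nrg4* in 2 and *Nrg3* in 0. *Nrg1* was lower without overlap in 1 and *Nrg2* in 2, but the share of all genes lower in this way was not taken, so these are descriptions only.

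Skeletal and interneuron clusters behaved differently. *Erbb4* in lumbar/sacral libraries overlapped with the others in 3 of 3 skeletal and 8 of 8 interneuron clusters, with median log2 differences over the clusters of -0.67 and 0.15. In I6, where it was highest, the means were 2388 and 2488 CPM. The largest interneuron difference, 1.11, was in I5, at 1547 and 854 CPM. The others fell apart there: the libraries labelled cervical replicate 2 and thoracic replicates 1 and 3 were at 1498, 1449 and 928 CPM, near the 1316 to 1857 CPM of the lumbar/sacral libraries, and those labelled cervical replicates 1 and 3 and thoracic replicate 2 at 586, 396 and 265 CPM.

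Cervical and thoracic values of *Erbb4* grouped by the *Hox* genes rather than by the labels in some clusters. In V1 *Erbb4* was at 371 and 295 CPM in cervical replicates 1 and 3 and at 285 CPM in the library labelled thoracic replicate 2, but at 113 and 98.7 CPM in thoracic replicates 1 and 3 and at 131 CPM in the library labelled cervical replicate 2. In V10 the first 3 were at 376, 348 and 278 CPM and the last 3 at 13.4, 23.5 and 77.8 CPM. The same 3 libraries were above the other 3 in S1, S2, S3 and I1 and, at 10.05 CPM or more against 9.91 or less, in V2, for example S2 at 237, 172 and 144 CPM against 43.9, 96.8 and 59.9 CPM. In I2 and I5 they were below them, and in the remaining clusters with all 6 libraries the values overlapped. These are descriptions of 6 libraries, and no test of the labels was made.

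**Figure D5:**
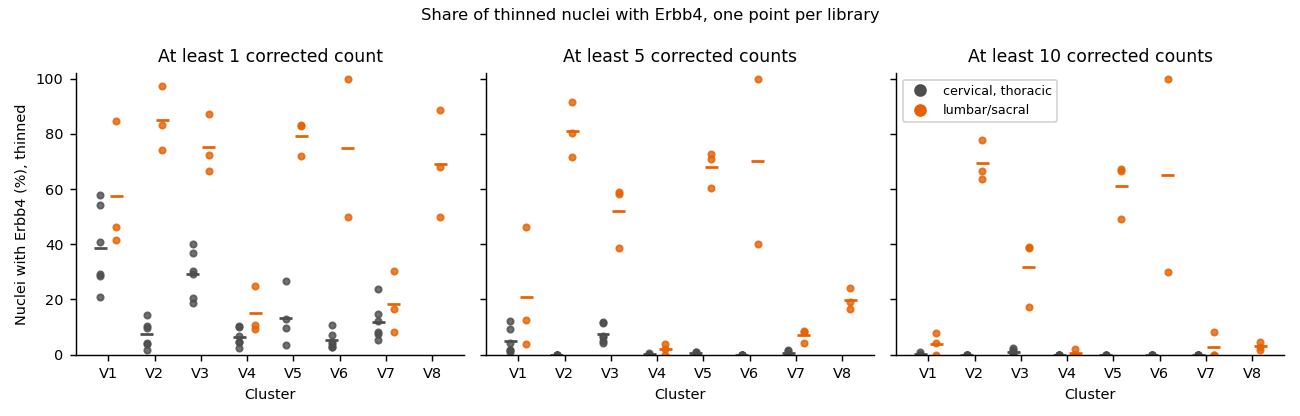
Percent of nuclei, thinned to 4600 corrected counts, with at least 1, 5 and 10 *Erbb4* counts in V1 to V8, with 1 point for each library and the mean as a bar, for lumbar/sacral (orange) and for cervical and thoracic libraries (grey). At 10 counts, lumbar/sacral V2 has 69.3% and the other V2 libraries have 0.

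The change was in how many nuclei held *Erbb4* and in how much each held. After thinning, 61.7% of lumbar/sacral visceral nuclei had a count (mean of 3 libraries), against 19.4% in the libraries labelled cervical and 13.3% in those labelled thoracic. At least 10 counts were found in 24.6% ± 5.23 of them, against 0.381% ± 0.149 and 0.122% ± 0.125 (SD, n = 3 each). In lumbar/sacral V2 85.0% of nuclei had a count and 69.3% ± 7.49 had at least 10, and in lumbar/sacral V5 these shares were 79.3% and 61.0% ± 10.2. Fewer V8 nuclei were rich in it: 69.0% had a count and 2.92% ± 1.61 had at least 10. Among interneurons the mean share with a count was 64.8% in lumbar/sacral libraries and lay between the 59.8% of thoracic and the 65.1% of cervical ones.

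Some sums of markers listed for other cells differed with the region in visceral MNs, and single genes made up much of these sums. Over all libraries *Slc4a4* had a mean of 132 CPM and *Vcan* of 15.1 CPM in visceral MNs. The sums therefore do not show whether nuclei of other cells were more or less common. The summed level of 7 astrocyte markers, all with a count, was 43.3 to 66.7 CPM in lumbar/sacral and 126 to 253 CPM in other visceral sums, led by *Slc4a4*. The 5 precursor markers of oligodendrocytes were at 8.46 to 11.3 CPM against 12.7 to 31.4, led by *Vcan*, and 4 Schwann cell markers at 5.81 to 6.52 CPM against 1.63 to 3.39, led by *Pmp22*. Levels of 8 oligodendrocyte markers (42.9 to 73.6 against 56.0 to 67.1 CPM), of 5 microglia markers (4.52 to 89.1 against 5.29 to 57.5 CPM) and of 3 endothelial markers (6.97 to 10.0 against 2.94 to 8.50 CPM) overlapped. None of the markers with a row was at 0 in visceral MNs, and their part in the *Erbb4* result was not tested.

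Genes around the receptors were taken from a list of 78 in 10 groups, from other ligands and sheddases to adaptors and kinases, of which 76 had a row. Between visceral and skeletal MNs 32 of the 67 tested were higher and 16 lower, where 36.7% and 30.1% of all genes were, with a median log2 difference of 0.13 beside 0.04 for all genes. The 3 largest differences called were in *Shc4* (-2.45 ± 0.13, SE) and *Shc3* (-1.59 ± 0.23), which encode adaptors that bind phosphorylated receptors, and in *Cblb* (-1.29 ± 0.08), which encodes a ubiquitin ligase. Their adjusted p in limma was at most 3.21e-06. The level of *Shc4* was 51.6 ± 10.9 CPM in the skeletal, 5.55 ± 3.18 in the visceral and 10.0 ± 2.03 in the interneuron class (SD, n = 9).

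In interneurons 25 of the 67 were higher and 20 lower than in skeletal MNs, where 27.8% and 31.7% of all genes were, and the median difference was 0.01 beside -0.02 for all genes. *Sntb1*, which encodes a syntrophin of the membrane scaffold, was higher by 3.11 ± 0.24 (SE, adjusted p = 3.25e-10), at 90.8 ± 46.9 against 5.12 ± 2.95 CPM, and *Shc4* and *Shc3* were lower by -1.90 ± 0.13 and -1.74 ± 0.23. Against visceral MNs 10 were higher and 29 lower, where 19.9% and 31.4% of all genes were, with a median of -0.10 beside -0.05. *Sntb1* led again with 2.70 ± 0.24, and *Gab1*, a docking protein of receptor kinases, was lower by -2.09 ± 0.11 at 6.40 ± 1.39 against 45.1 ± 15.5 CPM. *Egf*, a ligand of EGFR, was higher by 1.21 ± 0.12 at 21.02 ± 5.17 against 6.10 ± 1.43 CPM. It passed the filter on low values only through the interneuron sums, where it was high, so its call, counted above, is no support.

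Between the regions 5 of the 63 list genes tested were called in visceral MNs, 2 higher and 3 lower, where 2.32% and 1.94% of all genes were, with a median of -0.01 beside 0.06 for all genes. *Shc3* was at 29.7 to 38.8 CPM in lumbar/sacral and 99.2 to 157 CPM in other visceral sums, a log2 difference of -1.77 ± 0.16 (SE, adjusted p = 0.000530), and without V8 it was -1.63 ± 0.17. *Tgfa*, another ligand of EGFR, was at 12.6 to 14.9 CPM against 1.11 to 3.75 CPM, a difference of 1.30 ± 0.17. It passed the filter on low values only through the lumbar/sacral sums, where it was high. Its call, counted above, is therefore no support, and no p is given. Without V8 *Tgfa* was at 8.07 to 13.5 CPM in lumbar/sacral sums and did not pass the filter on low values. *Tmeff1*, a membrane protein with an EGF-like domain, was at 27.7 to 38.7 CPM against 47.5 to 85.6 CPM, a difference of -0.77 ± 0.17 (adjusted p = 0.0430) that was not called without V8 (adjusted p = 0.389). The other genes called, named after their values were seen, were *Gab2* (-0.68 ± 0.15, adjusted p = 0.0372) and *Pik3r1* (0.60 ± 0.13, adjusted p = 0.0391), and both lost the call without V8 (adjusted p = 0.0649 and 0.537). With median-of-ratios scaling *Tmeff1*, *Gab2* and *Pik3r1* were not called either.

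In skeletal MNs 0 of 63 genes of the list and in interneurons 0 of 62 were called by limma between regions, and 2 and 1 passed an unadjusted p of 0.05. The region difference itself differed between visceral and skeletal MNs for 4 of 66, 1 higher and 3 lower, against 2.67% and 3.29% of all genes. These were *Shc3* (-1.73 ± 0.18, adjusted p = 0.000297), *Tgfa* (1.14 ± 0.16, no p given), *Tmeff1* (-1.10 ± 0.13, adjusted p = 0.000578) and *Gab2* (-0.62 ± 0.14, adjusted p = 0.0239). Here too *Tgfa* passed the filter only through the lumbar/sacral visceral sums, and it was at most at 8.06 CPM in skeletal MNs. *Tgfa* did not pass the filter on low values, and so had no call, without V8, without any 1 of the lumbar/sacral replicates 1, 2 and 3, or without any 1 of the pools.

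Males and females can be set side by side only as 1 pool each, with the sex not separable from the pool. In lumbar/sacral visceral MNs *Erbb4* was at 1100 CPM in the male and 1345 CPM in the female pool. For the 5 members above the filter in 3 classes the male minus female difference, on the log2 scale, had the same sign in lumbar/sacral libraries and in the mean of cervical and thoracic libraries in 10 of 15 cases, and ranged from -0.94 to 0.54. *Nrg4* was higher in the male pool in all 3 classes and both parts of the cord, by 0.21 to 0.54. No test was made of these differences.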

How the data were processed

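The authors sorted GFP+ nuclei, made droplet libraries, aligned reads with Cell Ranger 3.1.0 to mm10 and normalized with SCTransform in Seurat. The deposited values are taken as a score of that model, not as molecule counts: they are whole numbers, but totals within a library vary by an SD of only 5.85 to 10.7% of their mean. Classes, clusters and regions are the authors' deposited labels. Filters on nuclei were theirs, and no doublet caller was run here. Sums per library and class were tested with limma 3.58.1 (R 4.3.3, trend) on log2(CPM + 5) for genes that reached 10 CPM in 3 sums or more, with the library as a term between classes and none between regions, and called at an adjusted p under 0.05. Such differences understate changes of low genes. Nothing in the values gives read depth, so intervals for counting error are not given. Between classes the p-values measure how class differences vary over the 9 libraries, with a spread shared by all 3 classes. Between regions they measure the spread between libraries of the same labelled region. These libraries come from only 3 pools of mice, and neither fit takes the pools as the replicates. Same-numbered libraries share mice, and their deviations from group means correlated from -0.22 to 0.92. On data made with known answers for 11292 genes, 98% of 200 changed genes were recovered in the class layout, 75% in the region layout and 65% for the difference between them, with 2.49, 7.98 and 6.47% of calls false. The noise of each library was drawn independently there, with no shared pools, so these rates need not hold for the real values. Other calculations used Python 3.11.15. Members and lists were chosen with earlier results of these data known. The genes named were the members, the 3 most like each of them by Pearson's r over 21 clusters, and the 3 largest called differences of the list in each comparison. Alternatives were pseudocounts of 1 and 20, median-of-ratios scaling, no filter, thinning, equal weights for clusters, leaving out V8, V9 or libraries, and the replicate block. The amino acid sequences were not used here.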

Additional observations from a re-analysis of the deposited data

Results flagged for a closer look

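In skeletal MNs *Nrg4* of lumbar/sacral replicate 2 was at 51.0 CPM, farther from the other 8 libraries than Dixon's test allows, and *Erbb3* of interneurons was at 1.46 CPM in the same library, where most libraries had none. Of 21 groups of 9 libraries looked at, 2 were marked in this way, and about 1 in 20 is marked by chance.

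The lumbar/sacral difference itself differed between visceral and skeletal MNs in *Shc3* (-1.73 on the log2 scale) and *Tmeff1* (-1.10), each by the limma test of the difference. *Tgfa* (1.14) was marked as well, but passed the filter on low values only through the lumbar/sacral visceral sums, where it was high. *Tgfa* fell under that filter without V8 or without any 1 of the lumbar/sacral libraries. For *Erbb4* it differed by 4.88, with visceral MNs higher and skeletal MNs lower in the lumbar/sacral library of all 3 pools, and this difference was not tested.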

How the results depend on the processing

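With the replicate block 0 of 4 or 5 members were called between regions in each class and for the region difference between visceral and skeletal MNs, as without it, and between classes the same numbers of members were called, 4, 5 and 5 with *Erbb4* counted, whose comparisons with visceral MNs are otherwise given without a p. The block changed no member's call. Counts of members called were within 1.5 times the reported ones in 58 of 58 comparisons with an alternative and in 84 of 84 with a library or pool left out. Between classes the loss of 1 call stays within that range, so this measure could not show it. Between visceral and skeletal MNs the count ran from 3 to 4 with a library or pool left out. The call lost was that of *Erbb4*, which was weaker in 4 and reversed in 1 of 20 alternatives. Over the alternatives the *Erbb4* difference in visceral MNs ran from 3.01, with clusters weighted equally, to 4.35, and its region difference between visceral and skeletal MNs from 4.49 to 5.20. Its difference between visceral and skeletal MNs turned to -0.0359 without the lumbar/sacral libraries and ran from 1.13 to 1.85 with 1 library or pool left out. The other reversals were of differences that were not called. Without V8, *Nrg1* between regions of visceral MNs was 0.0175 (0.0306 without V8 and V9), *Nrg3* -0.00771, and the region difference between classes was 0.128 for *Nrg1*, -0.0325 for *Nrg4* and 0.000426 for *Nrg2*. With median-of-ratios scaling *Nrg3* in visceral MNs was -0.0156 and the region difference of *Nrg2* 0.0168. This scaling moved the median of all genes by -0.128 between regions of skeletal MNs. After thinning *Nrg3* in interneurons was -0.00922. Without the 2 libraries whose *Hox* genes went against their labels *Nrg3* in visceral MNs was -0.0763, the region difference of *Nrg2* 0.0300, and in interneurons *Erbb4* was -0.125, *Nrg1* -0.0564 and *Nrg3* -0.0366. With 1 library or pool left out, values crossed 0 for *Nrg3* in visceral MNs (-0.124 to 0.192), *Nrg2* in skeletal MNs (-0.162 to 0.0293), *Erbb4* (-0.128 to 0.205), *Nrg1* (-0.0421 to 0.214) and *Nrg3* (-0.0693 to 0.193) in interneurons, and the region difference of *Nrg4* (-0.129 to 0.262) and *Nrg2* (-0.188 to 0.0369). The causes were not tested. The genes called among all genes changed by more than 1.5 times: from 428 to between 0 (without replicate 3) and 737 (replicate block) in visceral MNs, from 1 to between 0 and 12 in skeletal MNs, from 5 to between 0 and 44 in interneurons, and from 655 to as few as 161 (without replicate 1) for the region difference. Lumbar/sacral replicates 1 and 3 had the lowest median totals per nucleus. *Erbb3* and *Egfr* were tested only without the filter on low values. There 5, 7 and 6 of 7 members were called in the 3 comparisons between classes, with *Erbb4* counted, and 10154, 8834 and 7358 of all 21418 genes were.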
